A study of Danio rerio with 18 samples.

Results

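The step from 1 to 4 days post amputation (dpa) in the regenerating caudal fin of wild-type (WT) zebrafish was examined in 6 of the 18 libraries of the series, the 3 taken at 4 dpa and the 3 taken at 1 dpa. A gene entered the comparison when its normalised count reached 10 in at least 3 of these 6 libraries, which kept 21422 of the 32520 gene IDs in the deposited table. The series was made to compare fish lacking s1, a regeneration-associated silencer, with WT siblings by bulk RNA sequencing. Both groups described here were WT siblings of the outbred Ekkwill (EK) strain, about 4 to 8 months old, anaesthetised in 2-phenoxyethanol, with 50% of the fin length removed. At 4 dpa and at 1 dpa alike, each library came from its own pool of fin clips of 10 fish, so a value is a mean over animals and over all cell types of the clip. Fish lacking s1 (KO), derived from the same strain and clipped on the same days, and WT fins taken at amputation (0 dpa) are drawn on where stated.

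After amputation, epidermal cells first crawl over the stump and form a wound epidermis, while white blood cells enter the wound and stress and growth signals are switched on. Fibroblasts and osteoblasts of the stump then lose specialised traits and collect below the wound epidermis as the blastema, a mass of dividing progenitor cells. During outgrowth, FGF, Wnt, hedgehog and BMP signals keep the tip growing, actinotrichia (fibrils of collagen and actinodin proteins) are laid down at the fin edge, and new bone is deposited along the rays.

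The 4 dpa libraries held 90985854, 111331500 and 83859097 reads assigned to genes, and the 1 dpa libraries held 94297298, 96059475 and 109137859. Much of this depth went to 5 gene IDs (si:dkey-153m14.1, zgc:158463 and the unnamed IDs ENSDARG00000116076, ENSDARG00000116751 and ENSDARG00000112702), which took 88.1%, 90.5% and 87.5% of the reads at 4 dpa, against 62.2%, 58.3% and 84.3% at 1 dpa. That left 10486594 to 10861390 reads for all other genes in each 4 dpa library, against 17117941 to 40066198 at 1 dpa. Replicate 3 of 1 dpa, with its share of 84.3%, stood apart from the other 1 dpa libraries, and results that move with it are given with and without it. A count of 3 reads corresponded to a normalised count of 7.42 to 7.47 at 4 dpa and 1.97 to 4.35 at 1 dpa, and values near these floors are uncertain. Markers of the fin were present in all 6 libraries, among them krt5 and TP63 of the epidermis, COL1A2 and PDGFRA of the dermis and SP7 of bone. The marker col1a1a, a type I collagen ID, was near the floor, with 19.8, 0 and 4.95 at 4 dpa and 2.18, 1.97 and 2.90 at 1 dpa. Of the posterior Hox genes that mark the distal fin, hoxa13a, hoxa13b and 1 ID of HOXC13 were at 0 in all 6 libraries, while the other HOXC13 ID had 1036, 1343 and 1009 at 4 dpa and 849, 682 and 622 at 1 dpa.

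Genes of fin fold fibrils, fibrillar collagens, bone mineralisation, matrix-cutting enzymes and the hedgehog pathway were among those higher at 4 dpa than at 1 dpa. Genes of wound-induced growth factors, cytokines, surface keratins and ribosome assembly were among those lower. In all, 3170 genes (14.8% of those tested) passed an adjusted p of 0.05 in limma-trend with Benjamini-Hochberg adjustment and are called. Of these, 1647 (7.69%) were higher at 4 dpa and 1523 (7.11%) were lower, while 4422 genes (20.6%) had all 3 libraries of 4 dpa above all 3 of 1 dpa and 5076 (23.7%) had them below. The median log2 change over all tested genes was -0.02. The count fell to 1578 without replicate 1 of 1 dpa, 1602 without replicate 2 of 1 dpa, 2065 without replicate 2 of 4 dpa and 2024 without replicate 3 of 4 dpa, and reached 5312 when only the 12 libraries of 4 and 1 dpa of both genotypes set the spread. Which direction had more calls depended on the setting: there were 1517 higher and 1691 lower with TMM scaling, 2432 and 2880 in the 12 libraries, and 954 and 624 without replicate 1 of 1 dpa. Called genes named below kept their call with any 1 of the 6 libraries left out unless an exception is given with them.

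Of the 49 gene lists that were set against the comparison, the actinotrichia, collagen, collagen-processing, hedgehog, osteoblast and joint lists had over 50% of their tested members called higher. Ribosome biogenesis was the only one of the 49 with more than 50% called lower in the main fit. These rankings depended on the fit. Leaving 1 library out gave as few as 5 of 18 hedgehog, 2 of 9 joint and 12 of 31 osteoblast genes higher. It gave as few as 21 of 46 collagen-processing genes higher and 16 of 61 ribosome biogenesis genes lower. Left-out list counts here and below stand beside the following calls among all 21422 genes, which fell too. Without replicates 1, 2 and 3 of 1 dpa, 954, 943 and 1569 genes were higher and 624, 659 and 1411 lower. Without replicates 1, 2 and 3 of 4 dpa, 1361, 1119 and 1076 were higher and 1120, 946 and 948 lower. When the 12 libraries set the spread, 60 of 68 ribosomal protein, 42 of 54 oxidative phosphorylation and 31 of 38 proteasome genes were lower, beside 2880 of all 21422. In the 18 cases below where limma called 0 members of a list in a direction, 0 to 4 members passed an unadjusted p of 0.05 in that direction, edgeR called 0 and DESeq2 called 0 to 2. Since these are fins and not sorted cells, fewer cells of a type and less RNA per cell cannot be told apart in any of the lists.

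**Figure D1:**
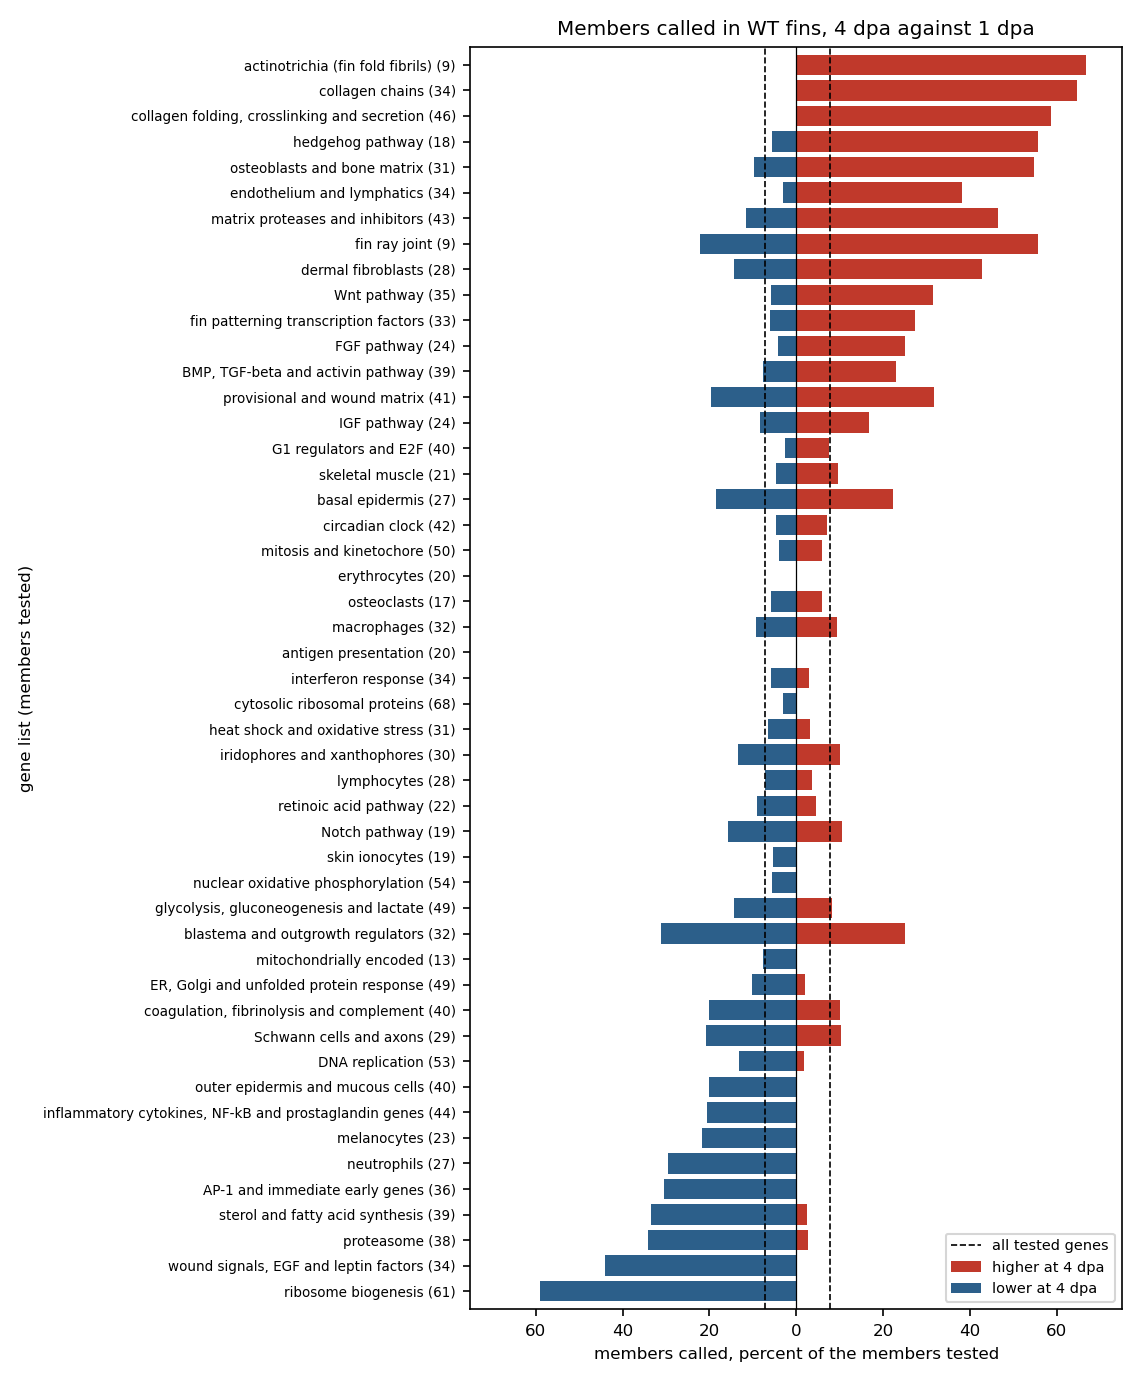
Share of tested members of 49 gene lists called higher (bars to the right) or lower (bars to the left) at 4 dpa against 1 dpa in WT fins; the x axis is the percent of the members tested, the number tested is in brackets, and dashed lines mark the 7.69% higher and 7.11% lower among all 21422 genes tested. Matrix, bone and hedgehog lists lie at the top and ribosome biogenesis, with 36 of 61 members lower, at the bottom.

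The 2 largest increases were in genes for actinotrichia. The actinodin gene and1 had 176625, 246395 and 241599 normalised counts at 4 dpa, against 893, 886 and 1143 at 1 dpa. The groups lay far apart, and the uninjured fins at 0 dpa (552, 948 and 880.4) were close to the 1 dpa level. Its log2 change was 7.82 ± 0.26 (SE, n = 3 libraries each), with an adjusted p of 3.4e-11 in limma. Each SE given here is the moderated value of the limma fit, with the spread set over all 18 libraries. A second actinodin, and2, had 28126, 34052 and 38763 at 4 dpa, against 77, 74.9 and 159 at 1 dpa (log2 change 8.41 ± 0.39 (SE), adjusted p = 9.89e-10, limma). Of the actinotrichia list, 6 of 9 tested members were called higher and 0 lower, beside 7.69% and 7.11% of all genes. The median log2 change of the list was 2.00. The summed level of the list was 292556 to 383148 at 4 dpa, against 22637 to 27651 at 1 dpa. Most of this sum came from and1, and2 and COL1A2, so it largely restates these genes. Among the collagen members of that list, COL1A2, a chain of type I collagen, had 84196, 93472 and 98603 at 4 dpa, against 21317, 20606 and 24974 at 1 dpa. COL2A1 (ENSDARG00000011407), a type II collagen chain, had 2758, 3456 and 3265 at 4 dpa, against 682, 635 and 819 at 1 dpa (log2 change 2.15 ± 0.30 (SE), adjusted p = 0.000133, limma). COL9A1 did not pass the test, with 109, 109.6 and 56.9 at 4 dpa, against 61.7, 53.2 and 88.4 at 1 dpa, and its groups overlapped.

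Genes of mineralised matrix came next. Enamelin (enam), an enamel matrix protein in mammals, had 20174, 23373 and 29821 at 4 dpa, against 161, 185 and 168 at 1 dpa (log2 change 7.13 ± 0.31 (SE), adjusted p = 5.59e-10, limma). Every 4 dpa library lay far above every 1 dpa library. scpp7 and scpp5 encode secretory calcium-binding phosphoproteins, a family of proteins of mineralised tissue. scpp7 had 519, 797 and 1189.7 at 4 dpa, against 1.45, 2.63 and 11.6 at 1 dpa. scpp5 had 153, 426 and 522 at 4 dpa, against 2.9, 1.31 and 2.9 at 1 dpa. At 1 dpa both lay at or near the floor of 3 reads, so the sizes of their log2 changes (7.36 and 6.63) are uncertain. The days did not overlap, but that was a condition for naming both genes. In addition, scpp5 passed the filter only through its 4 dpa libraries. The 3 enzymes tied to mineralisation in mammals that moved with them were PHOSPHO1, a phosphatase that frees phosphate for mineral, SMPD3, a neutral sphingomyelinase, and SGMS2, a sphingomyelin synthase. PHOSPHO1 had 851, 957 and 1051 at 4 dpa, against 48.6, 36.8 and 71 at 1 dpa (log2 change 4.21 ± 0.32 (SE), adjusted p = 3.21e-07, limma). SMPD3 had 1459, 1632 and 1734 at 4 dpa, against 79.9, 76.9 and 109 at 1 dpa (log2 change 4.18 ± 0.24 (SE), adjusted p = 1.11e-08, limma). SGMS2 had 757, 947 and 885 at 4 dpa, against 49.4, 61.8 and 26.1 at 1 dpa. Its 0 dpa libraries (254, 421 and 416) lay well above its 1 dpa libraries, whereas those of PHOSPHO1 (95.7, 68.8 and 69.2) lay near them.

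Also among the 12 largest increases were both zebrafish copies of wfikkn2, which in mammals encodes a secreted inhibitor of myostatin and GDF11. wfikkn2b had 3844, 5713 and 5783 at 4 dpa, against 56.6, 63.1 and 112 at 1 dpa (log2 change 6.07 ± 0.50 (SE), adjusted p = 6.44e-07, limma). wfikkn2a had 465, 593 and 712 at 4 dpa, against 22.5, 18.4 and 40.6 at 1 dpa (log2 change 4.45 ± 0.32 (SE), adjusted p = 1.64e-07, limma). Both were low in uninjured fins, with 195, 73.7 and 73.5 for wfikkn2b and 21.1, 13.8 and 16.6 for wfikkn2a. The other genes of this set were col6a4a, a type VI collagen chain (log2 change 4.03), and CPB1, a carboxypeptidase that was near the floor at 1 dpa (log2 change 3.99).

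**Figure D2:**
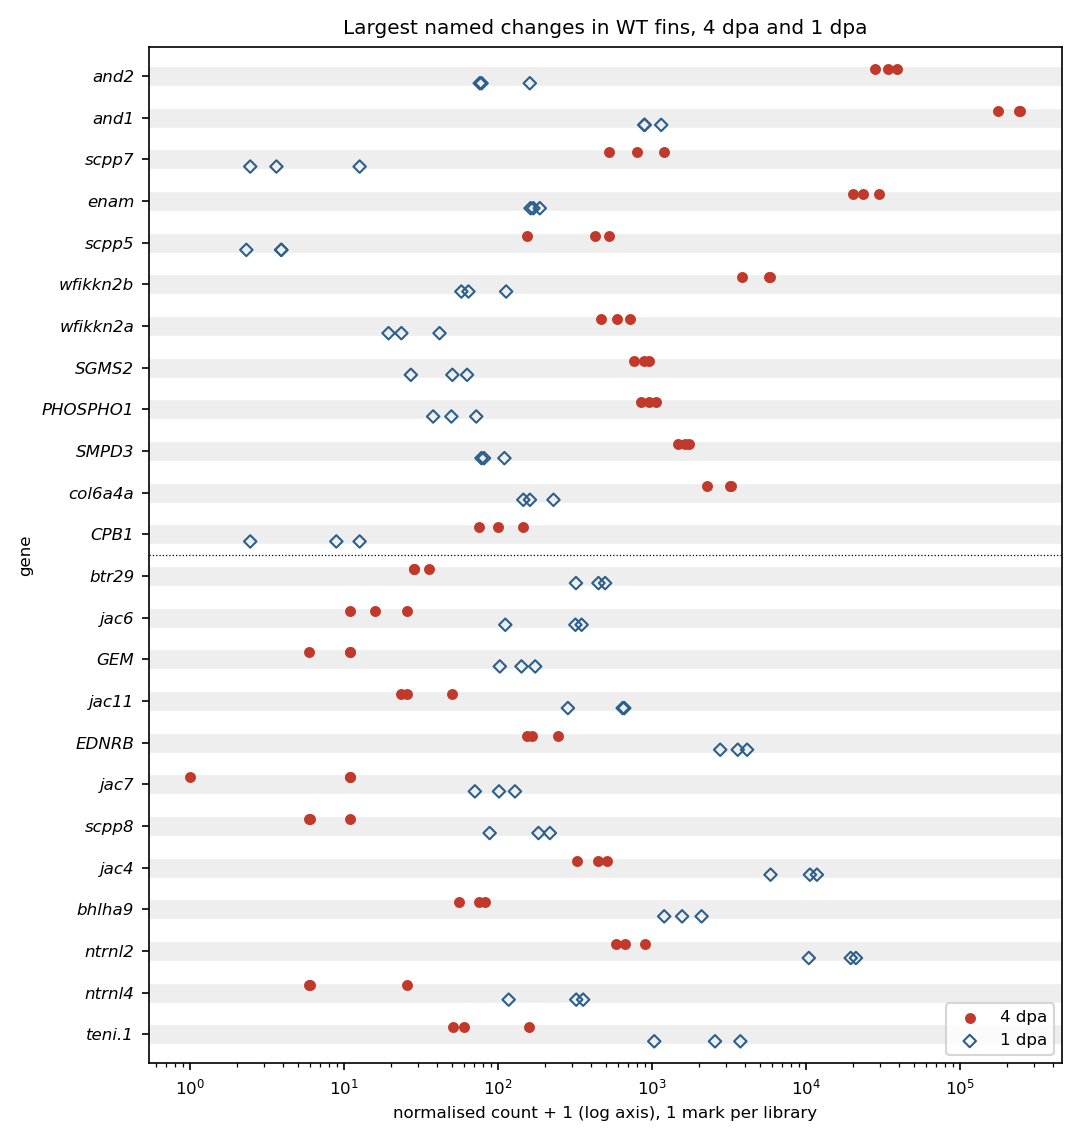
Normalised count + 1 (log axis) of the 12 genes with the largest increases (above the dotted line) and the 12 with the largest decreases in WT fins; each filled circle is a 4 dpa library and each open diamond a 1 dpa library, 3 of each per gene, with 4 dpa drawn above 1 dpa. The days do not overlap for any of the 24 genes, which was a condition for naming them; and1 lies between 176625 and 246395 at 4 dpa and between 886 and 1143 at 1 dpa.

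Collagen chains rose as a group: 22 of 34 tested members were called higher and 0 lower, beside 7.69% and 7.11% of all genes. The median log2 change was 1.17. Of the 34, 28 had all 4 dpa libraries above all 1 dpa libraries, against 20.6% of all genes. The summed level of the collagen list was 468533 to 553737 at 4 dpa, against 189169 to 239813 at 1 dpa. COL1A1, the second type I chain, had 103724, 121801 and 119268 at 4 dpa, against 27476, 25595 and 32619 at 1 dpa (log2 change 2.01 ± 0.20 (SE), adjusted p = 4.09e-06, limma). Chains of the minor fibrillar collagens ranged widely. COL11A2, a chain of type XI collagen, had 3864, 4963 and 4877 at 4 dpa, against 474, 369 and 707 at 1 dpa (log2 change 3.18 ± 0.21 (SE), adjusted p = 5.34e-08, limma). COL11A1 had 2800, 3699.9 and 3554 at 4 dpa, against 515, 497 and 762 at 1 dpa. col5a2b, of type V collagen, had 1274, 1639 and 1341 at 4 dpa, against 339, 283 and 371 at 1 dpa, and COL5A1, another type V chain, had 19662, 23224 and 21788 at 4 dpa, against 13886, 12222 and 13145 at 1 dpa (log2 change 0.72 ± 0.15 (SE), adjusted p = 0.00511, limma). In these 5 genes the days did not overlap. Among the members that missed the threshold was a copy of COL12A1 (ENSDARG00000078322), with 47145, 51579.6 and 54713 at 4 dpa, against 30298, 24998 and 36505 at 1 dpa and an adjusted p of 0.0599 in limma, although its groups did not overlap.

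The enzymes that fold, trim and link collagen followed the same direction, with 27 of 46 called higher and 0 lower (median log2 change 0.79). LOX, lysyl oxidase, which starts the crosslinking of collagen and elastin, had 1909.5, 2698 and 2614 at 4 dpa, against 454, 431 and 496 at 1 dpa (log2 change 2.37 ± 0.24 (SE), adjusted p = 4.79e-06, limma). colgalt2b, a collagen galactosyltransferase, had 1116, 1507 and 1929 at 4 dpa, against 104, 109 and 125 at 1 dpa and the largest change of the list (log2 3.71). The procollagen-trimming proteases ADAMTS3 and adamts2b rose by 2.19 and 2.46 on the log2 scale. Of the hydroxylases, PLOD1, a lysyl hydroxylase, had 2189, 2586 and 2919 at 4 dpa, against 709, 694 and 889.6 at 1 dpa. P4HA1, a prolyl hydroxylase subunit, had 460.1, 553 and 534 at 4 dpa, against 184, 169 and 206 at 1 dpa. General genes of the endoplasmic reticulum and Golgi did not share this rise: of 49 tested, 1 was called higher and 5 lower. Among all genes, 7.69% were called higher and 7.11% lower. The median log2 change of the list was -0.29. All 4 dpa libraries lay above all 1 dpa libraries in 4 of the 49 and below in 21, against 20.6% and 23.7% of all genes. When the 12 libraries of 4 and 1 dpa set the spread, 2 were higher and 16 lower, beside 2432 and 2880 of all 21422. Among the 5 called lower was TMED10, a cargo receptor of the early secretory pathway, with 5056, 5519 and 5753 at 4 dpa, against 10597, 10080 and 8952 at 1 dpa (log2 change -0.86 ± 0.19 (SE), adjusted p = 0.00536, limma). The lower count of that list was 1, 2, 8 and 3 without replicate 1, 2 or 3 of 1 dpa or replicate 3 of 4 dpa, and the higher count was 0 without replicate 2 of 1 dpa or replicate 3 of 4 dpa.

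Osteoblast and bone matrix genes were mostly higher, with 17 of 31 tested called higher and 3 lower, beside 7.69% and 7.11% of all genes. The median log2 change of the list was 0.82. SP7, the transcription factor of osteoblast precursors (osterix), had 542, 757 and 700 at 4 dpa, against 237, 192 and 177 at 1 dpa (log2 change 1.71 ± 0.19 (SE), adjusted p = 1.05e-05, limma). IFITM5, an osteoblast membrane protein, had 1202, 1617 and 1583 at 4 dpa, against 164, 184 and 164 at 1 dpa (log2 change 3.09 ± 0.39 (SE), adjusted p = 4.9e-05, limma). COL10A1 (ENSDARG00000054753), a type X collagen chain made by zebrafish osteoblasts, had 25128, 29360.2 and 31266 at 4 dpa, against 2163, 2136 and 2238 at 1 dpa. IFITM5 had 1389, 2849.8 and 2344 at 0 dpa and COL10A1 had 11175, 26541 and 23576, so for both genes the 1 dpa libraries were the lowest of the 3 days. PANX3, a channel protein of bone cells, had 1101, 1296 and 1237 at 4 dpa, against 66.8, 77.5 and 89.8 at 1 dpa (log2 change 3.95 ± 0.17 (SE), adjusted p = 5.59e-10, limma), and PHEX, an osteoblast peptidase tied to phosphate balance, rose by 1.56 on the log2 scale. RUNX2, the early osteoblast factor, went the other way with 2864, 3473 and 3230.2 at 4 dpa, against 6997, 6261 and 6305 at 1 dpa (log2 change -1.03 ± 0.31 (SE), adjusted p = 0.0365, limma). Its call was lost with any 1 of the 6 libraries left out, at adjusted p values of 0.0641 to 0.123. The related ID runx2b had 2008, 2402 and 2209 at 4 dpa, against 1277, 1154 and 1311 at 1 dpa, higher at 4 dpa with no overlap but without passing the test (adjusted p = 0.0737, limma). ANKH (ENSDARG00000071724), a pyrophosphate transporter that holds back mineral, had 618, 294 and 371 at 4 dpa, against 1074, 967 and 968 at 1 dpa (log2 change -1.30 ± 0.31 (SE), adjusted p = 0.011, limma), a call lost without replicate 2 of 4 dpa. tnfrsf11b, the RANKL decoy osteoprotegerin, was the third lower member, with a call lost at up to 0.115 without any 1 library except replicate 3 of 1 dpa. The count of 3 lower members was 1, 1, 2, 1, 0 and 1 when each of the 1 dpa and then each of the 4 dpa libraries was left out in turn.

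**Figure D3:**
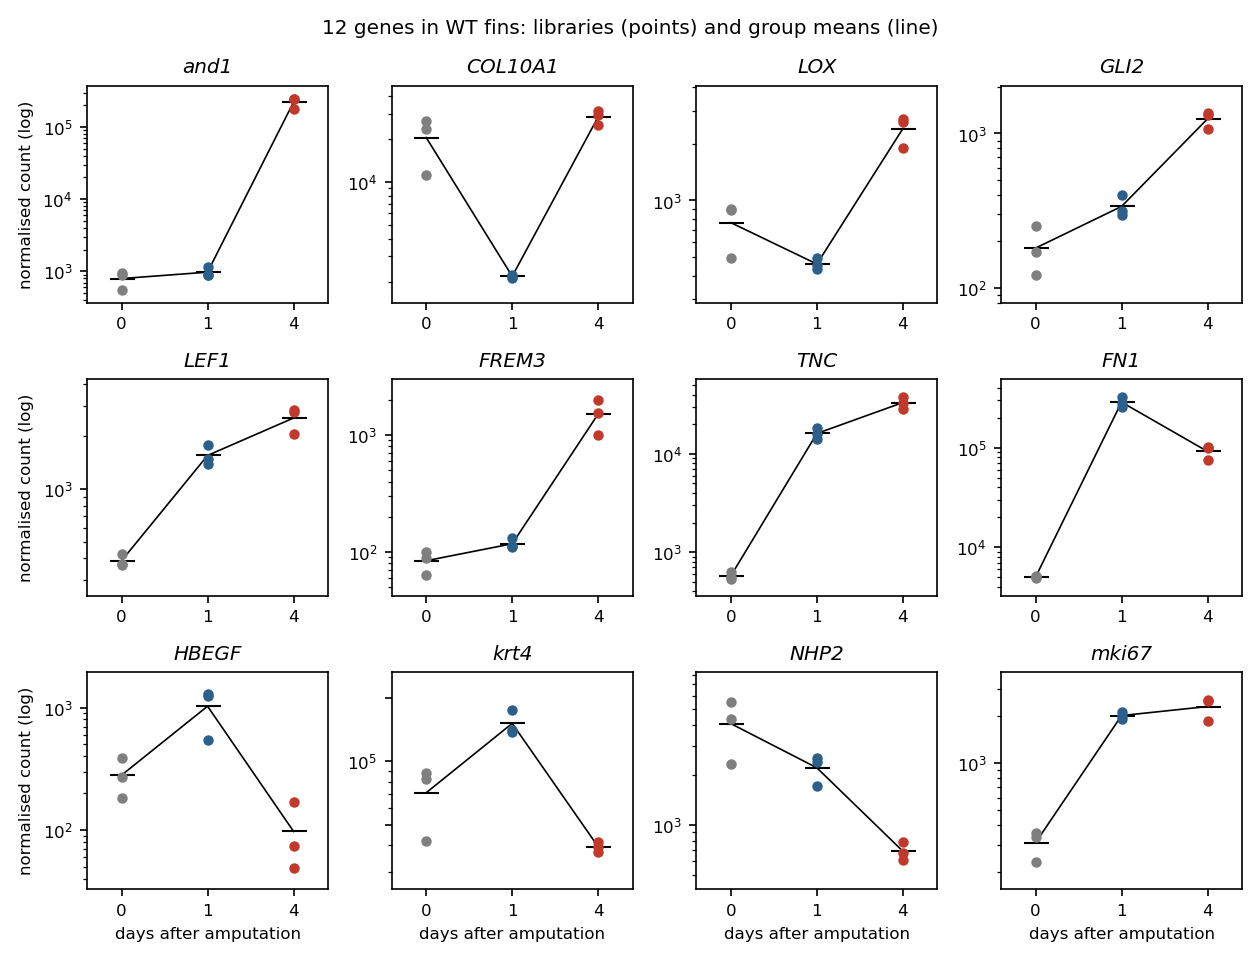
Normalised counts (log axes, each panel with its own range) of 12 genes in WT fins at 0, 1 and 4 dpa; points are the 3 libraries of a day and the line joins the group means. and1 is highest at 4 dpa, COL10A1 is lowest at 1 dpa, FN1 and HBEGF are highest at 1 dpa, and mki67 lies between 1872 and 2543 on both later days.

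The list of matrix-cutting enzymes and their inhibitors had 20 of 43 tested members called higher and 5 lower (median log2 change 0.83). These counts stand beside 7.69% higher and 7.11% lower among all genes. The membrane-bound metalloproteinase MMP15 (ENSDARG00000051962) had 1459, 1916 and 2038 at 4 dpa, against 181, 152 and 201 at 1 dpa (log2 change 3.33 ± 0.27 (SE), adjusted p = 5.76e-07, limma). mmp11b, a stromelysin, had 2068, 3077 and 2508 at 4 dpa, against 205, 317 and 384 at 1 dpa (log2 change 3.10 ± 0.32 (SE), adjusted p = 6.34e-06, limma). MMP14 (ENSDARG00000008388), which activates MMP2 at the cell surface, had 7675, 9211 and 10124 at 4 dpa, against 2621, 2504 and 2649.9 at 1 dpa, and MMP2 itself rose by 1.72 on the log2 scale. The 5 lower members were MMP9, adam8a, adam8b, adam28 and a copy of TIMP2. MMP9, a gelatinase, had 4591, 5015 and 4351 at 4 dpa, against 10475, 12097 and 7931 at 1 dpa (log2 change -1.11 ± 0.17 (SE), adjusted p = 0.000253, limma). adam8a, a protease of myeloid cells in mammals, had 1432, 1385 and 1746 at 4 dpa, against 5542, 5167 and 4487 at 1 dpa. A copy of TIMP2 (ENSDARG00000075261), a metalloproteinase inhibitor, had 683, 795 and 1014 at 4 dpa, against 8052, 6678 and 4523 at 1 dpa, which is the largest decrease of the list (log2 -2.93). The other TIMP2 copy (ENSDARG00000061226) was called higher (log2 1.34), a call lost without replicate 2 of 1 dpa or replicate 3 of 4 dpa.

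The provisional matrix list split, with 13 of 41 called higher and 8 lower, beside 7.69% and 7.11% of all genes. Both fibronectin genes were lower, and hyaluronan genes were found on both sides. FN1 (ENSDARG00000006526), fibronectin, had 101624, 74609 and 99620 at 4 dpa, against 283034, 254859 and 326616 at 1 dpa (log2 change -1.65 ± 0.32 (SE), adjusted p = 0.00236, limma), yet its 4 dpa values stayed far above the 5167, 4869 and 4969.8 of uninjured fins. The other FN1 copy (ENSDARG00000019815) had 23192, 24706 and 26737 at 4 dpa, against 42839, 41702 and 50453 at 1 dpa, and its call (adjusted p = 0.0202, limma) was lost, at 0.0566 to 0.0622, without replicate 1 or 3 of 1 dpa or replicate 1 or 2 of 4 dpa. HAS1, a hyaluronan synthase, had 104, 84.7 and 121 at 4 dpa, against 752, 709 and 620.1 at 1 dpa (log2 change -2.75 ± 0.22 (SE), adjusted p = 4.59e-07, limma), whereas HAS2, another synthase, had 479.9, 513 and 475 at 4 dpa, against 195, 235 and 220.2 at 1 dpa (log2 change 1.18 ± 0.23 (SE), adjusted p = 0.00245, limma). The hyaluronan receptor cd44a had 2189, 1896 and 1811 at 4 dpa, against 7924, 7128 and 4551 at 1 dpa. TNC (ENSDARG00000021948), tenascin C, had 28868, 32699 and 38305 at 4 dpa, against 16055, 14150.3 and 18124 at 1 dpa (log2 change 1.04 ± 0.23 (SE), adjusted p = 0.00591, limma). Its level was thus highest at 4 dpa and lowest at 0 dpa, where it had 538, 628 and 553. THBS3 (ENSDARG00000012060), a thrombospondin, had 252, 249 and 381 at 4 dpa, against 16, 30.2 and 34.8 at 1 dpa and the largest increase of the list (log2 3.44).

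Dermal fibroblast genes were also found on both sides, with 12 of 28 called higher and 4 lower, beside 7.69% and 7.11% of all genes. Among the higher members, PRELP, a leucine-rich proteoglycan, had 883, 1333 and 1195 at 4 dpa, against 167, 154 and 165 at 1 dpa (log2 change 2.78 ± 0.18 (SE), adjusted p = 6.38e-08, limma), and FBLN2, fibulin 2, had 1358, 1794 and 1771 at 4 dpa, against 234, 244 and 314 at 1 dpa. The 4 lower members include genes of contractile cells. acta2, smooth muscle actin, had 54.4, 37.4 and 29.7 at 4 dpa, against 318, 288 and 464 at 1 dpa (log2 change -3.12 ± 0.35 (SE), adjusted p = 1.39e-05, limma). TAGLN (ENSDARG00000033466), transgelin, had 3772, 3139 and 3196 at 4 dpa, against 18011, 15232 and 8794 at 1 dpa. The others were the second TAGLN copy (ENSDARG00000045408) and ccn2b, a matricellular growth factor. The second TAGLN copy lost its call at up to 0.0737 without replicate 1 or 2 of 1 dpa or replicate 2 or 3 of 4 dpa, and ccn2b lost it at 0.0576 without replicate 2 of 4 dpa, which left 2 lower members. Of the 9 tested genes of the fin ray joint, 5 were higher and 2 lower. pthlha, a parathyroid hormone-like factor of joint cells, had 438, 424 and 571 at 4 dpa, against 192, 125 and 142 at 1 dpa (log2 change 1.65 ± 0.38 (SE), adjusted p = 0.00779, limma), and dact2 had 920.1, 1213 and 1286 at 4 dpa, against 401, 296 and 372 at 1 dpa. prg4a, which encodes lubricin, had 505, 99.7 and 101 at 4 dpa, against 1388, 1521 and 1646 at 1 dpa (log2 change -3.13 ± 0.41 (SE), adjusted p = 7.51e-05, limma), with the 0 dpa libraries (1466, 1639 and 1577) at the 1 dpa level and replicate 1 of 4 dpa above the other 4 dpa libraries. The count of 5 was 3, 3 and 3 without replicate 1, 2 or 3 of 1 dpa, and 2 and 3 without replicate 2 or 3 of 4 dpa.

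Among signalling lists the hedgehog pathway had the largest share called, with 10 of 18 tested members higher and 1 lower (median log2 change 0.62). The shares among all genes were 7.69% and 7.11%. GLI2 (ENSDARG00000020884), a transcription factor of the pathway, had 1069, 1313 and 1355 at 4 dpa, against 296, 316 and 397 at 1 dpa (log2 change 1.89 ± 0.31 (SE), adjusted p = 0.000598, limma). PTCH1, a receptor whose own transcription is switched on by the pathway, had 1786, 2145 and 2224 at 4 dpa, against 871, 779 and 1104 at 1 dpa, and its call (adjusted p = 0.0231, limma) was lost at up to 0.0989 without replicate 1 or 2 of 1 dpa or replicate 2 or 3 of 4 dpa. Another 7 higher members changed by 0.54 (BOC) to 1.02 (DISP1) on the log2 scale and included GLI1, a target and effector of the pathway (log2 1.00), GLI3 and the receptor partner CDON. Of these 7, DISP1, HHIP, BOC and GAS1 lost their calls in some of the left-out settings, among them replicate 2 of 1 dpa for each. The ligands were not called higher. SHH (ENSDARG00000068567) had 4.95, 19.9 and 39.6 at 4 dpa, against 7.26, 11.8 and 8.69 at 1 dpa, and ihha had 14.8, 105 and 69.3 at 4 dpa, against 40.7, 68.3 and 63.7 at 1 dpa, with overlapping groups in both. SHH had few reads and lay under the floor of 3 reads in replicate 1 of 4 dpa, so a change could be missed. ihhb, another ligand, was called lower with 4.95, 4.98 and 0 at 4 dpa, against 47.9, 49.9 and 65.2 at 1 dpa, but its 4 dpa values lie under the floor of 3 reads, so the size of the change is uncertain, and its call was lost without replicate 3 of 4 dpa (adjusted p = 0.0683, limma). The count of 10 was 6, 5 and 6 without replicate 1 of 1 dpa, replicate 2 of 1 dpa or replicate 2 of 4 dpa.

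In the Wnt list, 11 of 35 tested genes were higher and 2 lower, beside 7.69% and 7.11% of all genes. Feedback genes that Wnt signalling switches on were among the higher. NKD1, a feedback inhibitor, had 715, 757 and 851 at 4 dpa, against 222, 242 and 298 at 1 dpa (log2 change 1.61 ± 0.16 (SE), adjusted p = 4.4e-06, limma). AXIN2, a standard target of the pathway, had 979.5, 1149 and 1333 at 4 dpa, against 624, 615 and 713 at 1 dpa (log2 change 0.82 ± 0.17 (SE), adjusted p = 0.00336, limma). TCF7, a transcription factor of the pathway, had 2748, 2820.4 and 3141 at 4 dpa, against 1023, 1242 and 1234 at 1 dpa, and its partner LEF1 had 2068, 2751 and 2837 at 4 dpa, against 1388, 1487 and 1797 at 1 dpa. LEF1 lost its call (adjusted p = 0.0103, limma) at 0.0615 without replicate 1 of 1 dpa and at 0.0519 without replicate 3 of 4 dpa. The ligand genes were less uniform: RSPO1, a secreted enhancer of Wnt signals, had 346, 269 and 193 at 4 dpa, against 118, 88.7 and 110.1 at 1 dpa (log2 change 1.31 ± 0.20 (SE), adjusted p = 0.000332, limma). WNT5A had 534, 777 and 918 at 4 dpa, against 401, 413 and 388 at 1 dpa without passing the test (adjusted p = 0.0888, limma), and WNT10A had 881, 942 and 915 at 4 dpa, against 1116, 1048 and 1065 at 1 dpa (adjusted p = 0.544, limma). Both had groups that did not overlap, in opposite directions. The count of 2 lower members was 0, 1, 1 and 0 without replicates 1, 2 and 3 of 1 dpa or replicate 3 of 4 dpa.

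The FGF list had 6 of 24 higher and 1 lower, beside 7.69% and 7.11% of all genes. The higher members were 3 receptor genes, the inhibitors SPRY2 and IL17RD, and the ligand fgf24, whose call was lost at up to 0.0655 without replicate 2 or 3 of 1 dpa or replicate 3 of 4 dpa. fgfrl1b, a receptor-like protein without a kinase, had 665, 762 and 737 at 4 dpa, against 212, 236 and 229 at 1 dpa (log2 change 1.67 ± 0.18 (SE), adjusted p = 7.4e-06, limma). FGFR1 (ENSDARG00000011027) had 2459, 2878 and 2582 at 4 dpa, against 1331, 1347 and 1734 at 1 dpa. SPRY2, an inhibitor induced by FGF signals, had 376, 429 and 465 at 4 dpa, against 222, 214 and 229 at 1 dpa (log2 change 0.92 ± 0.22 (SE), adjusted p = 0.0108, limma), whereas DUSP6, another such inhibitor, had 2070.3, 2118 and 2921 at 4 dpa, against 2266, 2174 and 2599 at 1 dpa with overlapping groups (adjusted p = 1, limma). FGF20 (ENSDARG00000007356), a ligand, was the lower member with 29.7, 19.9 and 47 at 4 dpa, against 102, 146 and 58 at 1 dpa (log2 change -1.62 ± 0.49 (SE), adjusted p = 0.0363, limma). Its call was lost, at up to 0.167, without replicate 1 or 2 of 1 dpa or replicate 1 or 2 of 4 dpa.

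BMP, TGF-beta and activin genes had 9 of 39 members higher and 3 lower, with 5 higher when replicate 2 of 1 dpa was left out. Counts of this and the retinoic acid, Notch and IGF lists stand beside 7.69% higher and 7.11% lower among all genes. TGFBI, a matrix protein induced by TGF-beta, had 2162, 2544 and 2597 at 4 dpa, against 475, 404 and 585 at 1 dpa (log2 change 2.33 ± 0.16 (SE), adjusted p = 1.18e-07, limma). BAMBI (ENSDARG00000099677), a decoy receptor, had 1143, 1333 and 1521 at 4 dpa, against 571, 461 and 467 at 1 dpa, and BMP4 had 413, 436 and 482 at 4 dpa, against 297, 279 and 246 at 1 dpa (log2 change 0.69 ± 0.16 (SE), adjusted p = 0.00683, limma). Both INHBA copies, which encode the activin beta A subunit, fell: the copy ENSDARG00000012671 had 532, 638 and 683 at 4 dpa, against 2565, 2952 and 1614 at 1 dpa (log2 change -1.91 ± 0.28 (SE), adjusted p = 0.000206, limma), and ENSDARG00000024759 had 198, 159 and 183 at 4 dpa, against 332, 386 and 293 at 1 dpa. In the retinoic acid list 1 of 22 was higher and 2 lower. ALDH1A2, the enzyme that makes retinoic acid, had 267, 229 and 247 at 4 dpa, against 528, 493 and 443 at 1 dpa (log2 change -0.97 ± 0.22 (SE), adjusted p = 0.00698, limma), and CYP26B1, which breaks it down, had 1482, 2093 and 1877 at 4 dpa, against 822, 665 and 861 at 1 dpa without passing the test (adjusted p = 0.0549, limma). Of 19 Notch genes 2 were higher and 3 lower. The ligand jag1a had 1524, 1365 and 1979 at 4 dpa, against 6283, 6934 and 6397 at 1 dpa (log2 change -2.03 ± 0.19 (SE), adjusted p = 2.73e-06, limma). In the IGF list, with 4 of 24 higher and 2 lower, the ligand igf2b had 1093, 1129 and 1524 at 4 dpa, against 6055, 4625 and 3923 at 1 dpa (log2 change -1.96 ± 0.26 (SE), adjusted p = 9.5e-05, limma), and the binding protein IGFBP2 (ENSDARG00000031422) had 1111, 1674 and 1519 at 4 dpa, against 470.4, 471 and 661 at 1 dpa (log2 change 1.42 ± 0.21 (SE), adjusted p = 0.000286, limma). The Notch counts were 1 higher without replicate 1 or 2 of 1 dpa or replicate 1 or 3 of 4 dpa and 1 lower without replicate 1 of 4 dpa, and the IGF list had 1 lower without replicate 1 or 2 of 1 dpa or replicate 2 of 4 dpa.

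The list of blastema and outgrowth regulators did not move one way: 8 of 32 were higher and 10 lower, with a median log2 change of -0.13. Counts of this and the fin patterning list stand beside 7.69% higher and 7.11% lower among all genes. Among the higher blastema members, twist3 had 1504, 1722 and 1909 at 4 dpa, against 250.5, 223 and 222 at 1 dpa (log2 change 2.87 ± 0.21 (SE), adjusted p = 1.93e-07, limma). SALL4, a zinc finger factor of limb and fin buds, had 173, 224 and 218 at 4 dpa, against 33.4, 38.1 and 29 at 1 dpa, and msx3, a homeobox gene of the msx family, had 2869, 4104 and 3272 at 4 dpa, against 1472, 1286 and 1314 at 1 dpa. msx1a had 24.7, 34.9 and 14.8 at 4 dpa, against 0, 1.31 and 0 at 1 dpa, with under 3 reads in each 1 dpa library, so the size of its change is uncertain. msx1b, the family member long used as a blastema marker, had 1692, 1864 and 1558 at 4 dpa, against 1434, 1418 and 877 at 1 dpa and did not pass the test (adjusted p = 0.344, limma). Among the lower members, TPH1 (ENSDARG00000036082), the first enzyme of serotonin synthesis, had 416, 344 and 524 at 4 dpa, against 2301, 1827 and 1723 at 1 dpa (log2 change -2.20 ± 0.24 (SE), adjusted p = 9.49e-06, limma). lepb, a leptin gene induced by injury in zebrafish, had 119, 167 and 171 at 4 dpa, against 796, 1109 and 320.2 at 1 dpa (log2 change -2.12 ± 0.55 (SE), adjusted p = 0.0178, limma), and its call was lost, at up to 0.0982, without replicate 1 or 2 of 1 dpa or replicate 1 of 4 dpa. The count of 10 lower was 5 without replicate 1 of 1 dpa, 5 without replicate 2 of 1 dpa and 6 without replicate 1 of 4 dpa. Among fin patterning factors, 9 of 33 were higher and 2 lower. ZIC2 (ENSDARG00000037178) and ZIC5 rose by 2.25 and 1.97 on the log2 scale, and TBX18 had 512, 733 and 608 at 4 dpa, against 129, 160.3 and 204 at 1 dpa (log2 change 1.91 ± 0.34 (SE), adjusted p = 0.00123, limma).

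Genes of the epidermis were read as 2 lists. In the list of the outer layer and mucous cells, 8 of 40 were lower and 0 higher, beside 7.11% and 7.69% of all genes. The median log2 change of that list was -0.59. krt4, a keratin of the surface layer, had 41359, 39523 and 37318 at 4 dpa, against 175457, 140180 and 137707 at 1 dpa (log2 change -1.93 ± 0.31 (SE), adjusted p = 0.000558, limma). krt18a.1, a simple epithelial keratin, had 14391, 16013 and 17267 at 4 dpa, against 189099, 183728 and 96986 at 1 dpa (log2 change -3.24 ± 0.45 (SE), adjusted p = 0.000131, limma). The days were well apart for both, although replicate 3 of 1 dpa was the lowest of its day. DSP (ENSDARG00000022309), the desmosomal linker desmoplakin, had 18178, 17615 and 16670.5 at 4 dpa, against 43945, 40160.2 and 44734 at 1 dpa. The summed level of the list was 416434 to 520271 at 4 dpa, against 795162 to 1137259.7 at 1 dpa. At 0 dpa it was higher still, at 1567541 to 4869643. The count of 8 was 4, 5 and 5 without replicate 1 of 1 dpa, replicate 2 of 4 dpa or replicate 3 of 4 dpa.

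The basal epidermis list had 6 of 27 higher and 5 lower, beside 7.69% and 7.11% of all genes. Its higher members were led by the Fraser complex, extracellular proteins that tie the epidermis to the dermis. FREM3 had 997, 1552 and 1998 at 4 dpa, against 109.6, 131 and 113 at 1 dpa (log2 change 3.62 ± 0.29 (SE), adjusted p = 4.52e-07, limma), FREM2 (ENSDARG00000076856) had 4616, 6351 and 8169.6 at 4 dpa, against 1265, 1678 and 872 at 1 dpa, and fras1 had 4796, 5773 and 6134 at 4 dpa, against 1944, 1995 and 2439.9 at 1 dpa. The laminin chain LAMA5 rose by 2.05 on the log2 scale, while lamb3, which encodes a chain of a laminin that migrating keratinocytes lay down in mammals, had 136, 154 and 151 at 4 dpa, against 862, 828 and 533 at 1 dpa (log2 change -2.29 ± 0.29 (SE), adjusted p = 5.32e-05, limma). The days did not overlap in any of these 5 genes. krt5 had 135169, 134707 and 123068 at 4 dpa, against 151401, 131901 and 187636 at 1 dpa, and TP63, the regulator of basal keratinocytes, had 6493, 6812 and 7292 at 4 dpa, against 9474, 8999 and 8965 at 1 dpa. Neither passed the test (adjusted p = 0.66 and 0.0964, limma).

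Of the list of wound signals with EGF and leptin factors, 15 of 34 were called lower and 0 higher (median log2 change -0.65). Among all genes, 7.11% were lower and 7.69% higher. HBEGF, a membrane-bound EGF receptor ligand, had 168, 74.7 and 49.5 at 4 dpa, against 1248, 1290.2 and 539 at 1 dpa (log2 change -3.46 ± 0.47 (SE), adjusted p = 9.73e-05, limma), and at 0 dpa it had 183, 385 and 273. il11b, an IL-6 family cytokine, had 14.8, 9.97 and 24.7 at 4 dpa, against 193, 235 and 123 at 1 dpa (log2 change -3.44 ± 0.38 (SE), adjusted p = 1.14e-05, limma). Its 4 dpa values lie near the floor of 3 reads, so the size of the change is uncertain. EDNRB (ENSDARG00000053498), an endothelin receptor, had 166, 152 and 242 at 4 dpa, against 4131, 3593 and 2763 at 1 dpa (log2 change -4.23 ± 0.22 (SE), adjusted p = 3.83e-09, limma). In all 3 genes the days were apart. STAT3, the transcription factor downstream of IL-6 family cytokines, had 2538, 3007 and 3455 at 4 dpa, against 2852, 3056 and 3389 at 1 dpa, and its groups overlapped (adjusted p = 0.889, limma). The count of 15 was 6, 8 and 9 without replicate 1 of 1 dpa, replicate 2 of 1 dpa or replicate 2 of 4 dpa.

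AP-1 and other immediate early genes were lower in 11 of 36 tested members and higher in 0, beside 7.11% and 7.69% of all genes. The AP-1 subunits fosl1b and FOSL1 led the list. fosl1b had 14.8, 14.9 and 14.8 at 4 dpa, against 142, 125 and 84 at 1 dpa (log2 change -2.86 ± 0.52 (SE), adjusted p = 0.00152, limma). The size of this change is uncertain, since the 4 dpa values lie near the floor of 3 reads. FOSL1 had 183, 107 and 186 at 4 dpa, against 1021, 929.6 and 795 at 1 dpa (log2 change -2.56 ± 0.44 (SE), adjusted p = 0.000979, limma), and JUNB (ENSDARG00000074378) had 4376, 4390.1 and 5444 at 4 dpa, against 12288, 12881 and 14402 at 1 dpa (log2 change -1.48 ± 0.27 (SE), adjusted p = 0.00159, limma). Not all subunits moved this way. JUN had 1395, 1373 and 1655 at 4 dpa, against 728, 789.6 and 803 at 1 dpa (adjusted p = 0.07, limma), with the 4 dpa libraries all above those of 1 dpa, and FOSB had 1009, 409 and 729.6 at 4 dpa, against 539, 683 and 703 at 1 dpa, with overlapping groups. Both had far higher levels in the fins taken at amputation, 2821, 6772 and 5773 for JUN and 8351, 9845 and 6987 for FOSB. The count of 11 was 7, 5, 7 and 6 without replicate 1 of 1 dpa, replicate 2 of 1 dpa, replicate 2 of 4 dpa or replicate 3 of 4 dpa, and 1 member was called higher without replicate 3 of 1 dpa, replicate 1 of 4 dpa or replicate 2 of 4 dpa.

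Inflammatory genes were lower in 9 of 44 tested members and higher in 0 (median log2 change -0.62). Counts of this and the neutrophil list stand beside 7.11% lower and 7.69% higher among all genes. il1b, interleukin 1 beta, had 19.8, 44.8 and 101 at 4 dpa, against 213, 215 and 232 at 1 dpa (log2 change -2.26 ± 0.45 (SE), adjusted p = 0.00305, limma). cxcl8a, a chemokine that draws neutrophils, had 44.5, 19.9 and 9.89 at 4 dpa, against 152, 225 and 122 at 1 dpa (log2 change -2.89 ± 0.52 (SE), adjusted p = 0.00134, limma). Their 0 dpa levels were not low, with 71.9, 191 and 171 for il1b and 96.1, 222 and 157 for cxcl8a. In replicate 3 of 4 dpa cxcl8a lay near the floor of 3 reads, so the size of its change is uncertain. TNFAIP6, a hyaluronan-binding protein induced by inflammation, had 883, 887 and 784 at 4 dpa, against 5299, 4619 and 2579 at 1 dpa. The days did not overlap in these 3 genes, and 1 member of the list was called higher without replicate 3 of 1 dpa. Markers of neutrophils were lower in 8 of 27 and higher in 0, with a median log2 change of -1.27. npsn, a neutrophil protease of fish, had 119, 99.7 and 22.3 at 4 dpa, against 303, 406 and 319 at 1 dpa (log2 change -2.38 ± 0.50 (SE), adjusted p = 0.00434, limma). The summed level of the neutrophil list was 10188 to 12083 at 4 dpa, against 24162 to 39703 at 1 dpa. At 0 dpa it was 21725, 59609 and 57005, a range that spans the 1 dpa levels. What part neutrophils have in the change of the inflammatory list was not tested. Macrophage markers had no common direction, with 3 of 32 higher, 3 lower and a median of -0.07, beside 7.69% higher and 7.11% lower among all genes. SPI1, the myeloid factor PU.1, had 428, 421 and 425 at 4 dpa, against 1008, 953 and 656 at 1 dpa (log2 change -1.01 ± 0.32 (SE), adjusted p = 0.0409, limma), a call lost at up to 0.154 without any 1 of the libraries except replicate 3 of 1 dpa. AXL, a receptor for dying cells, had 1390.1, 1325 and 1553 at 4 dpa, against 724, 623 and 777 at 1 dpa, and the 2 IDs of MPEG1, a macrophage gene, did not pass the test, at log2 changes of 0.10 and 0.10. AXL and mertka, a related receptor, lost their calls at 0.0585 and 0.0661 without replicate 2 of 1 dpa, which left 1 higher macrophage marker. The call of mertka was also lost, at up to 0.0786, without replicate 1 of 1 dpa or replicate 1 or 3 of 4 dpa. The lower count of macrophage markers was 1 without any 1 library except replicate 3 of 1 dpa.

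Of 61 ribosome biogenesis genes tested, 36 were called lower and 0 higher, with a median log2 change of -0.84. Counts of this and the proteasome and sterol lists stand beside 7.11% lower and 7.69% higher among all genes. Of the 61, 53 had all 4 dpa libraries below all 1 dpa libraries, against 23.7% of all genes. polr1e, a subunit of RNA polymerase I, had 158, 169 and 148 at 4 dpa, against 545, 562 and 407 at 1 dpa (log2 change -1.65 ± 0.39 (SE), adjusted p = 0.00943, limma). NHP2, a protein of the particles that modify ribosomal RNA, had 613, 787 and 673 at 4 dpa, against 2393, 2511 and 1702 at 1 dpa (log2 change -1.66 ± 0.44 (SE), adjusted p = 0.0196, limma). Its call was lost, at up to 0.0811, without replicate 1 or 2 of 1 dpa or replicate 1 or 3 of 4 dpa. Proteasome subunits were lower in 13 of 38 and higher in 1, the activator PSME4 (ENSDARG00000087911, 84.1, 79.7 and 109 at 4 dpa, against 34.8, 36.8 and 34.8 at 1 dpa). Genes of sterol and fatty acid synthesis were lower in 13 of 39 and higher in 1. TM7SF2, a sterol reductase, had 143, 135 and 134 at 4 dpa, against 553, 379.7 and 407 at 1 dpa (log2 change -1.68 ± 0.38 (SE), adjusted p = 0.00749, limma), and at 0 dpa it had 797, 459.9 and 1383.

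These counts rested on the set of libraries, as did the calls over all genes. The ribosome biogenesis count was 16, 18, 21 and 21 without replicate 1 of 1 dpa, replicate 2 of 1 dpa, replicate 1 of 4 dpa or replicate 3 of 4 dpa. In the same fits 624, 659, 1120 and 948 of all 21422 genes were lower. The proteasome count was 2 and 2 without replicates 1 and 2 of 1 dpa and 3, 3 and 4 without replicates 1, 2 and 3 of 4 dpa, and it was 18 without replicate 3 of 1 dpa. For sterol synthesis it was 3, 5 and 7 without replicates 1, 2 and 3 of 1 dpa and 7, 6 and 5 without replicates 1, 2 and 3 of 4 dpa. The 1 higher member, LPIN1, lost its call at up to 0.183 without replicate 1 or 2 of 1 dpa or replicate 2 or 3 of 4 dpa. Of the 68 cytosolic ribosomal protein genes, 2 were called lower and 0 higher, yet 64 had non-overlapping groups, all lower, and the median log2 change was -1.17. Among all genes, 7.11% were called lower and 23.7% had non-overlapping groups with 4 dpa lower. RPL38, 1 of the 2 called ribosomal protein genes, had 6607, 6747 and 6710.3 at 4 dpa, against 17715, 19551 and 10624 at 1 dpa (log2 change -1.21 ± 0.38 (SE), adjusted p = 0.041, limma). The 2 calls became 0 with any 1 library left out except replicate 3 of 1 dpa, without which they became 5, and became 60 when only the 12 libraries of 4 and 1 dpa set the spread. In that fit 2880 of all 21422 genes were lower. At 0 dpa the summed ribosomal protein level was 4418424 to 14199528, a range far wider than the 1077364 to 1567571 at 4 dpa and the 1950662 to 3556595 at 1 dpa. Nuclear genes of oxidative phosphorylation had 3 of 54 called lower, 51 with non-overlapping groups, all lower, a median log2 change of -1.12 and 42 called in the 12 libraries. Their 3 calls became 0, 0 and 6 without replicates 1, 2 and 3 of 1 dpa and 0, 1 and 1 without replicates 1, 2 and 3 of 4 dpa.

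The share of reads taken by the 5 most abundant genes ran alongside these lists: it was lowest in replicates 1 and 2 of 1 dpa and high in replicate 3 of 1 dpa and in all 4 dpa libraries. Replicate 3 of 1 dpa was also the lowest of its day in summed ribosomal protein, proteasome, outer epidermis and neutrophil level. With that share added as a covariate, a setting chosen after seeing the data, 46 ribosomal protein genes, 46 ribosome biogenesis genes, 31 proteasome genes and 33 oxidative phosphorylation genes were called lower. Among all 21422 genes, 3113 were lower and 2493 higher in that fit. Collagen chains were then called higher in 24 of 34 members. That fit raised the calls over all genes from 3170 to 5606, and in WT the share runs with the day. It therefore cannot tell the share from the day, and what part the share has in these lists was not tested.

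**Figure D4:**
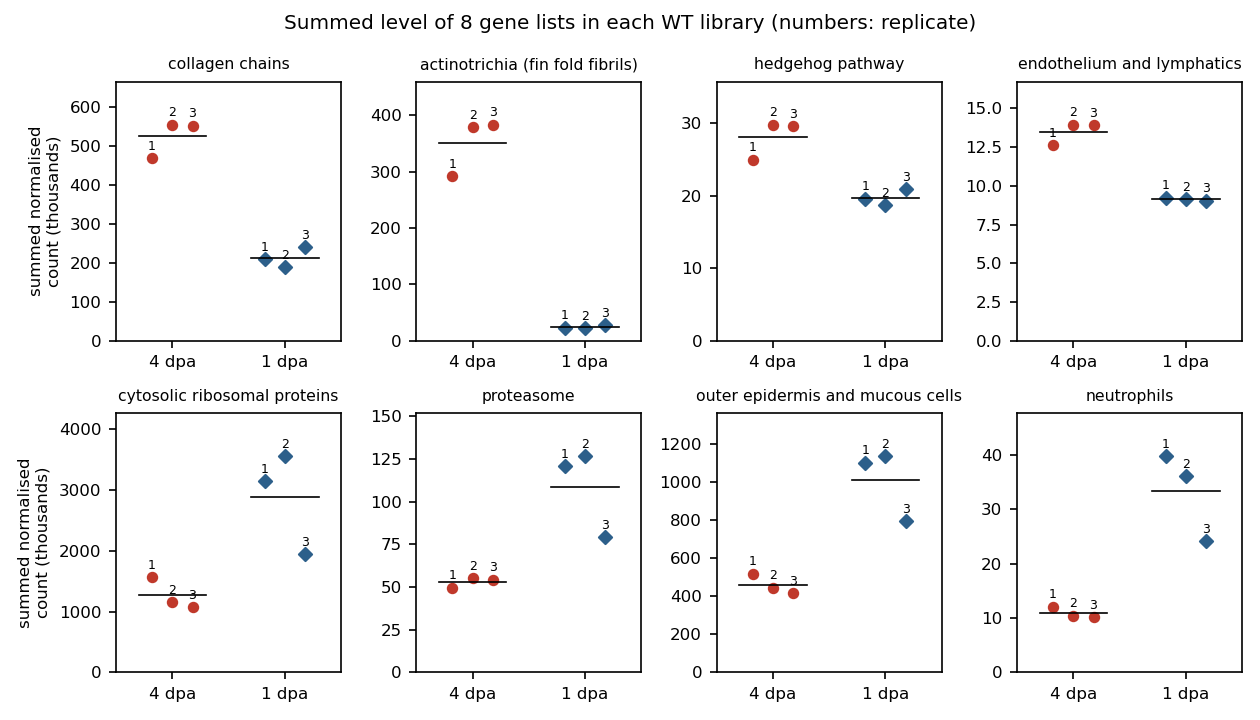
Summed normalised count (y axes from 0, scaled as labelled) of 8 gene lists in each WT library, with 4 dpa as red circles on the left and 1 dpa as blue diamonds on the right, replicate numbers above the marks and bars at the group means. The top row is higher at 4 dpa in every library and the bottom row lower, and replicate 3 of 1 dpa lies nearest to the 4 dpa libraries in all 4 lists of the bottom row.

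Genes of cell division were read as separate lists. Mitosis and kinetochore genes had 3 of 50 higher and 2 lower (median log2 change -0.01), shares below the 7.69% and 7.11% of all genes. mki67, the Ki-67 proliferation antigen, had 1872, 2509 and 2543 at 4 dpa, against 2007, 2134 and 1914 at 1 dpa (adjusted p = 0.514, limma), and both days lay above the 234, 355 and 339 of uninjured fins. TOP2A, the topoisomerase of dividing cells, had 920.1, 1296 and 1281 at 4 dpa, against 1161, 1219 and 999.7 at 1 dpa (adjusted p = 0.921, limma). The days overlapped in both genes. SMC4, a condensin subunit, was called higher with 727, 959 and 846 at 4 dpa, against 388, 585 and 478 at 1 dpa (log2 change 0.81 ± 0.18 (SE), adjusted p = 0.00629, limma). CCNB1, cyclin B1, was called lower with 648, 867 and 816 at 4 dpa, against 1681, 1700.1 and 1104 at 1 dpa (log2 change -0.93 ± 0.23 (SE), adjusted p = 0.014, limma), a call lost at up to 0.076 without replicate 1 or 2 of 1 dpa or replicate 1 of 4 dpa. DNA replication genes had 1 of 53 higher and 7 lower, with a median log2 change of -0.52. Of the 53, 26 had all 4 dpa libraries below all 1 dpa libraries and 1 had them above, against 23.7% below and 20.6% above among all genes. When the 12 libraries of 4 and 1 dpa set the spread, 21 of the 53 were lower, and 25 were lower in KO. Among all 21422 genes, 2880 were lower in that fit of 12 libraries, and 17.3% were lower in KO. The higher member was MCM7, a subunit of the replicative helicase, with 1182, 1308 and 1699 at 4 dpa, against 566, 654 and 753 at 1 dpa, and its call was lost at up to 0.125 without replicate 1 or 2 of 1 dpa or replicate 2 or 3 of 4 dpa. ORC1, of the origin recognition complex, had 272, 249 and 292 at 4 dpa, against 439.9, 431 and 485 at 1 dpa (log2 change -0.74 ± 0.18 (SE), adjusted p = 0.0105, limma), and PCNA, the replication clamp, had 2570, 3326 and 4108 at 4 dpa, against 4453, 5733 and 4347 at 1 dpa without passing the test (adjusted p = 0.158, limma). Without a library the mitosis counts were 1 higher (replicate 1 of 1 dpa), 0 lower (replicate 1 or 2 of 1 dpa or replicate 1 of 4 dpa) and 1 lower (replicate 2 or 3 of 4 dpa). The replication count of 7 was 1 without each of replicate 1 of 1 dpa, replicate 2 of 1 dpa and replicate 1 of 4 dpa, and 4 and 2 without replicates 2 and 3 of 4 dpa.

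Of the genes of clotting and complement, 4 of 40 were called higher and 8 lower, against 7.69% and 7.11% of all genes. Among the lower, f5, coagulation factor V, had 252, 264 and 282 at 4 dpa, against 1173, 1171 and 927 at 1 dpa (log2 change -2.02 ± 0.22 (SE), adjusted p = 9.91e-06, limma), and it had 11.7, 19.7 and 20.2 at 0 dpa. c4b, a complement component, had 47, 29.9 and 74.2 at 4 dpa, against 510.3, 521 and 445 at 1 dpa (log2 change -3.35 ± 0.27 (SE), adjusted p = 5.76e-07, limma). For both the 1 dpa libraries were the highest of the 3 days. Among the higher, serpinf1, which encodes pigment epithelium-derived factor, a protein tied to bone mineral in mammals, had 5078, 6772 and 5894 at 4 dpa, against 1301, 1097 and 1508 at 1 dpa (log2 change 2.18 ± 0.16 (SE), adjusted p = 1.64e-07, limma). vwf, von Willebrand factor, made by endothelium, had 299, 386 and 329 at 4 dpa, against 147, 134 and 146 at 1 dpa (log2 change 1.24 ± 0.16 (SE), adjusted p = 6.05e-05, limma).

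Glycolysis and lactate genes had 4 of 49 members higher and 7 lower, against 7.69% and 7.11% of all genes. SLC16A3 (ENSDARG00000045051), a lactate exporter, had 44.5, 49.8 and 49.5 at 4 dpa, against 274, 231 and 232 at 1 dpa (log2 change -2.33 ± 0.39 (SE), adjusted p = 0.000734, limma). PDK2 (ENSDARG00000020876), a kinase that holds pyruvate back from mitochondria, had 218, 182 and 178 at 4 dpa, against 47.2, 85.4 and 86.9 at 1 dpa (log2 change 1.43 ± 0.24 (SE), adjusted p = 0.000849, limma). LDHA, lactate dehydrogenase, had 1244, 1582 and 1192 at 4 dpa, against 3421, 3465 and 2102 at 1 dpa, and its call was lost without replicate 1 or 2 of 1 dpa or replicate 1 or 3 of 4 dpa. The counts were 1 higher without any 1 library except replicate 1 of 4 dpa, and 3 lower without replicate 1 of 1 dpa. In the list of clock genes, which follow the hour of sampling, 3 of 42 were higher and 2 lower, shares below the 7.69% and 7.11% of all genes. PER1 (ENSDARG00000012499), a core clock gene, had 2028, 1445 and 1823 at 4 dpa, against 716, 769.9 and 1094 at 1 dpa (log2 change 1.05 ± 0.24 (SE), adjusted p = 0.0071, limma). The hour at which fins were clipped is not given in the sources used here. The clock count was 1 higher without replicate 1 or 2 of 1 dpa or replicate 1 or 3 of 4 dpa.

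Of 34 endothelial and lymphatic genes, 13 were called higher and 1 lower, beside 7.69% and 7.11% of all genes. The list had a median log2 change of 0.61 and a summed level of 12607 to 13940.1 at 4 dpa, against 9054 to 9236 at 1 dpa. angpt2b, an angiopoietin of remodelling vessels, had 317, 389 and 408 at 4 dpa, against 87.1, 131 and 122 at 1 dpa (log2 change 1.71 ± 0.22 (SE), adjusted p = 4.9e-05, limma). aplnrb, an apelin receptor, had 210.2, 339 and 237 at 4 dpa, against 85.7, 69.6 and 98.5 at 1 dpa (log2 change 1.60 ± 0.36 (SE), adjusted p = 0.00681, limma), while its relative aplnra was the lower member. kdrl, the VEGF receptor used as a general marker of zebrafish endothelium, had 754, 775 and 969.6 at 4 dpa, against 738, 679 and 768 at 1 dpa and did not pass the test (adjusted p = 0.418, limma). The count of 13 was 8 without replicate 1 of 1 dpa, and the call of aplnra was lost, at up to 0.133, without replicate 1, 2 or 3 of 1 dpa or replicate 2 of 4 dpa.

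The lists of other cell types are read against the 7.69% called higher and 7.11% called lower among all genes. Nerve and Schwann cell genes had 3 of 29 higher and 6 lower: ELAVL4, an RNA-binding protein of neurons, had 158, 174 and 178 at 4 dpa, against 76.2, 74.9 and 73.9 at 1 dpa (log2 change 1.17 ± 0.21 (SE), adjusted p = 0.00146, limma). Melanocyte genes had 0 of 23 higher and 5 lower. Of the 23, 13 had all 4 dpa libraries below all 1 dpa libraries, against 23.7% of all genes. The summed level of the melanocyte list was 4669.7 to 5558 at 4 dpa, against 9602 to 12622 at 1 dpa, with no overlap. Of the 30 iridophore and xanthophore genes, 3 were higher and 4 lower. ltk, a receptor kinase of iridophores, had 329, 329 and 346 at 4 dpa, against 126, 105 and 120.3 at 1 dpa (log2 change 1.51 ± 0.15 (SE), adjusted p = 4.4e-06, limma), and GPNMB, a glycoprotein of pigment cells and macrophages, had 272, 259 and 247 at 4 dpa, against 711, 664 and 826 at 1 dpa. No erythrocyte gene (0 of 20) and no antigen presentation gene (0 of 20) was called by limma. Without replicate 3 of 1 dpa, 1 erythrocyte gene was lower. There were 2 lower when the 12 libraries of 4 and 1 dpa set the spread, beside 2880 of all 21422 genes. Antigen presentation had 1 lower without replicate 2 of 4 dpa and 1 higher without replicate 3 of 4 dpa. Skeletal muscle, which a deep clip could include, had 2 of 21 higher and 1 lower, and its summed level was 1420.2 to 1501 at 4 dpa and 1452 to 1498 at 1 dpa. The lower counts of the nerve list were 1, 1, 3, 1 and 2 without replicates 1, 2 and 3 of 1 dpa and replicates 2 and 3 of 4 dpa. Its higher count was 1 without replicate 2 of 1 dpa. The lower counts of the melanocyte list were 1, 1, 2 and 3 without replicates 1 and 2 of 1 dpa and replicates 2 and 3 of 4 dpa. The lower count of the iridophore and xanthophore list was 1 without any 1 library except replicate 1 of 4 dpa. Skeletal muscle had 1 higher without replicate 2 or 3 of 1 dpa or replicate 2 of 4 dpa.

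Among the 12 largest decreases were 4 jacalin-family lectin genes and 2 genes named ntrnl. jac4 had 509.5, 321 and 445 at 4 dpa, against 10572, 11734 and 5865 at 1 dpa (log2 change -4.42 ± 0.41 (SE), adjusted p = 2e-06, limma). ntrnl2 had 898, 583 and 663 at 4 dpa, against 19464, 21032 and 10397 at 1 dpa (log2 change -4.53 ± 0.42 (SE), adjusted p = 1.92e-06, limma). Both had low 0 dpa levels, 52, 160.2 and 115 for jac4 and 65.2, 213 and 151 for ntrnl2, so the 1 dpa libraries stood above both other days. bhlha9, a helix-loop-helix factor needed for limb formation in mammals, had 74.2, 54.8 and 81.6 at 4 dpa, against 1562, 2092 and 1195 at 1 dpa (log2 change -4.49 ± 0.35 (SE), adjusted p = 3.88e-07, limma) and 0 dpa levels of 32.8, 86.5 and 63.4. teni.1 had the largest decrease, with 59.4, 49.8 and 158 at 4 dpa, against 3735, 2556 and 1030.1 at 1 dpa (log2 change -4.77 ± 0.66 (SE), adjusted p = 0.000137, limma). Replicate 3 of 1 dpa was the lowest of its day in these 4 genes and still exceeded every 4 dpa library. The jac genes are a family, so reads may be shared among them, and jac7 and scpp8 were near or under the floor of 3 reads at 4 dpa.

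In 12 families, gene IDs that share a symbol were called in opposite directions. Of the 32520 gene IDs, 6136 share a symbol with another, and 7.69% of all tested genes were called higher and 7.11% lower. No expected number of such families was computed, so the 12 are a description only. MDK, midkine, is a heparin-binding growth factor: its copy ENSDARG00000020708 had 89, 115 and 129 at 4 dpa, against 23.2, 10.5 and 2.9 at 1 dpa (log2 change 3.43 ± 0.53 (SE), adjusted p = 0.00037, limma), and ENSDARG00000036036 had 4200, 4512 and 4981 at 4 dpa, against 12470.3, 12067 and 7162 at 1 dpa (log2 change -1.17 ± 0.30 (SE), adjusted p = 0.0157, limma). LMX1B, a homeobox gene of dorsal limb pattern, had 1014, 1181 and 1169.9 at 4 dpa, against 337, 318 and 371 at 1 dpa for ENSDARG00000104815. Its other copy, ENSDARG00000068365, had 121, 167 and 98.9 at 4 dpa, against 311, 279.9 and 338 at 1 dpa. SALL1, a zinc finger factor, rose in ENSDARG00000074319 (log2 0.94) and fell in ENSDARG00000075891 (log2 -2.16). For TIMP2, ENSDARG00000061226 had 3156, 3384 and 3997 at 4 dpa, against 1519, 1112 and 1566 at 1 dpa, opposite to the lower copy ENSDARG00000075261 described above. The higher MDK copy lay under the floor of 3 reads in replicate 3 of 1 dpa, so the size of its change is uncertain. The call of the lower MDK copy was lost at up to 0.0824 without replicate 1 or 2 of 1 dpa or replicate 1 of 4 dpa. The higher SALL1 copy lost its call at up to 0.0728 without replicate 2 of 1 dpa or replicate 2 or 3 of 4 dpa, and the higher TIMP2 copy at up to 0.0912 without replicate 2 of 1 dpa or replicate 3 of 4 dpa. The remaining families were ADAMTS8, CDC42EP4, CNN3, CREB5, F2R, FABP7, MGAT1 and THBS4, and the 12 were singled out after their values were seen. In ADAMTS8, CDC42EP4, CREB5, F2R and FABP7 a call was lost with some library left out.

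The same step in fish lacking s1 compared 6 other libraries. The share of reads taken by the 5 most abundant genes differed between the days here too. It was 79.0%, 82.9% and 80.3% at 4 dpa in KO, against 10.9%, 72.0% and 76.9% at 1 dpa. What part this share has in the overlap of WT and KO calls was not tested. The spread of each gene was estimated over all 18 libraries for both genotypes, so the WT and KO calls are not independent of each other. In KO, 6368 genes were called (29.7%), 2657 higher (12.4%) and 3711 lower (17.3%). Of the 1647 genes higher in WT, 1431 were also called higher in KO, which is 86.9% of the WT genes and 53.9% of the KO genes. Of the 1523 lower in WT, 1337 were also lower in KO, 87.8% and 36% of the 2 sets. Across the 21422 genes the log2 changes of WT and KO had a Pearson r of 0.844 and a Spearman rho of 0.824, a description over genes that are not independent of each other. and1 had 200234, 235330 and 169744 in KO at 4 dpa, against 655, 1110.5 and 915 at 1 dpa, a log2 change of 7.84 beside 7.82 in WT. GLI2 (ENSDARG00000020884) changed by 1.89 in WT and 2.47 in KO, and HBEGF by -3.46 in WT and -4.98 in KO. The KO count was 3304 without replicate 1 of KO 1 dpa and 3593 without replicate 3 of KO 4 dpa.

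The difference between the genotypes in this step was tested gene by gene, and 0 genes passed (0% of 21422). At an unadjusted p under 0.05 there were 514 (2.4%), a smaller share than chance alone would give at that threshold. There were 755 when the 12 libraries of 4 and 1 dpa set the spread. The share thus depends on the fit and does not measure how alike the genotypes are. On the whole reads edgeR and DESeq2 also called 0, and the smallest adjusted p in limma was 0.218. With the share of the 5 most abundant genes as a covariate, chosen after seeing the data, 1890 had an unadjusted p under 0.05 and 3 were called. Without the filter on low values limma called 3. The standard error of that difference had a median of 0.42 on the log2 scale. With 3 libraries a group and the spread set over all 18 libraries, modest differences were not detectable. The gene slc26a10, an anion transporter singled out after its values were seen, was called lower in WT (14.8, 4.98 and 4.95 at 4 dpa, against 24.7, 14.5 and 20.3 at 1 dpa) and higher in KO (31.3, 23.4 and 39.2 at 4 dpa, against 12.1, 10.5 and 12.4 at 1 dpa). The WT call was lost, at 0.0566 to 0.156, without any 1 library except replicate 1 of 4 dpa, and edgeR and DESeq2 did not make it (adjusted p = 0.0755 and 0.102). Its WT groups overlapped, its values lie near the floor, and the difference did not pass the test (adjusted p = 0.999, limma).

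**Figure D5:**
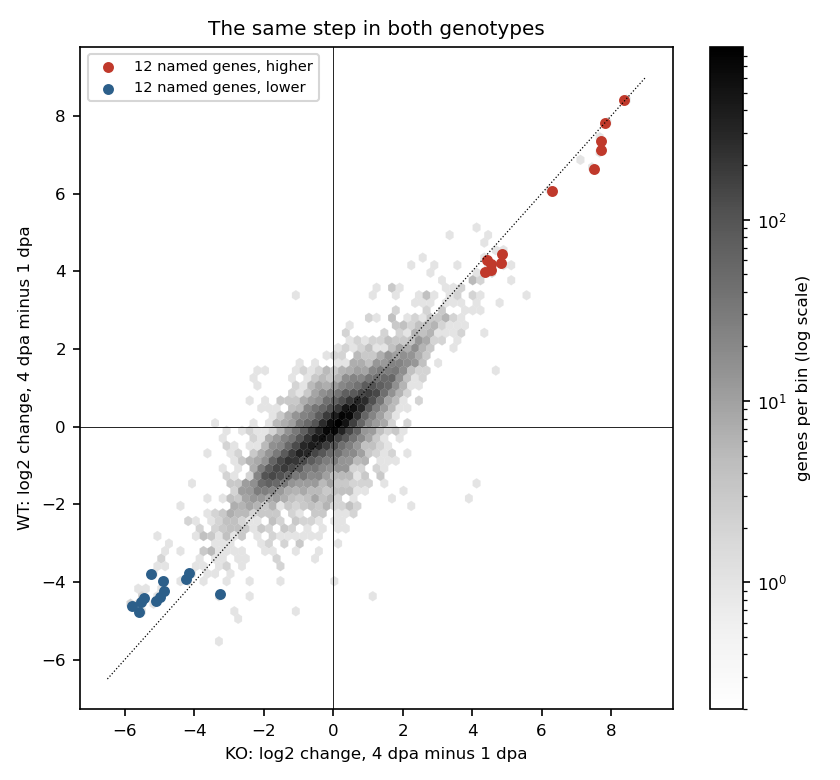
Log2 change from 1 to 4 dpa of 21422 genes in WT (y axis) and KO fins (x axis), drawn as bins shaded by the number of genes on a log scale, with the 24 most changed named WT genes as points and the line of equal change dotted. The points lie close to the dotted line, from and2 at 8.41 in WT and 8.38 in KO to teni.1 at -4.77 in WT and -5.59 in KO.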

How the data were processed

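Bulk RNA sequencing was done on 18 libraries of fin clips, 3 for each of 6 groups of genotype and day. Per the labels, cDNA was made from total RNA, tagged with Tn5 and sequenced as read pairs by DNBSEQ. The submitters' processing notes name Trim Galore 0.6.7, cutadapt 3.5 and STAR 2.7.10 with the zebrafish build danRer11. Which annotation was used, and whether strand was, is not given in the sources used here. The authors deposited 1 table of normalised counts, a read count signal per gene divided by a size factor for each library. Low values stepped by what 1 read is worth, so whole reads were recovered: 100% of values came out whole within 0.001, and the divisors equalled size factors recomputed by the median-of-ratios method.

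The main test was limma-trend (limma 3.58.1, R 4.3.3) on log2(normalised count + 1), with all 18 libraries as 6 group means, 12 residual degrees of freedom, and two-sided p-values with Benjamini-Hochberg adjustment over 21422 genes at 0.05. Fold changes on this scale understate the change of low genes. No sequencing batch is given in the labels. The labels do not say how the pools of a group were otherwise separated, so p-values measure the spread between these libraries. Pools of the same replicate number were not treated as pairs. Levels were not compared between genes, since no gene length was used. edgeR 4.0.16 (quasi-likelihood) and DESeq2 1.42.0 on the whole reads, other scalings, pseudocounts, filters and fits, and each library left out were tried. Data were simulated for the comparison of 4 with 1 dpa over 21138 genes. In them the test recovered 14.9% of genes changed 2-fold, 88.1% of those changed 4-fold and 95.5% of those changed 8-fold. It made 12 false calls there. These rates describe the simulated data only. In the real libraries replicate 3 of 1 dpa stood apart from the others of its day across many genes. The rates of recovery and of false calls under such a shared shift were not measured.

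The comparison, the 49 gene lists and the alternatives were chosen with earlier results of these data known. Many IDs carry a human gene's symbol that several zebrafish copies share; 80 of 1845 list entries matched no ID, and 1107 matched through such a family symbol. A symbol that belongs to several IDs is given with its ID. Named genes were the 12 largest changes in each direction among called genes with a descriptive symbol, a mean of at least 50 and non-overlapping groups, and up to 4 called members of each list in each direction. COL1A1, IFITM5, SP7, PHEX, LEF1, AXIN2, BMP4, both FN1 copies, TNC, JUNB, MMP14, MMP2, msx3, FGFR1, PLOD1, P4HA1, HAS2, COL5A1, runx2b and the hedgehog members GLI1, GLI3, HHIP, BOC, CDON and GAS1 were added after their values were seen. A few genes that this rule selects are not reported here. Members that were not called were also picked with their values seen. Counts without strand cannot separate a gene from an overlapping or antisense one, and reads of near-identical copies may be split.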

Additional observations from a re-analysis of the deposited data

How the results depend on the processing

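The 3170 called genes became 5312 when the 12 libraries of 4 and 1 dpa set the spread, 6556 when the 6 WT libraries did so alone, and 5606 with the share of the 5 most abundant genes as a covariate, the last chosen after seeing the data. With 1 library left out the WT count ranged from 1578 to 2980. The KO count of 6368 ranged from 3304 to 6231 with 1 library left out. The 0 genes of the difference between genotypes became 3 without the filter on low values and 3 with the share as a covariate. DESeq2 called 4200 genes and edgeR 2914 in WT, and the other scalings, filters and pseudocounts gave 3053 to 3255. Whether replicate numbers pair the libraries could not be settled, since deviations from a mean of 3 libraries are tied to each other. The deviations of same-numbered WT libraries from their group means correlated at 0.04, 0.02 and 0.05, and those of KO libraries at 0.25, 0.06 and 0.20. KO libraries of different number correlated at -0.21 to 0.11. In each genotype every library but replicate 2 of 1 dpa correlated best with its own number. With a replicate block the WT count was 3007, and 15 of the 240 genes named by rule, SPI1 and RPL38 among them, lost their call. Of the 240, 149 kept their call in every alternative that gave them a test, which was 18 or 19 for each gene, and 6 kept it in under 10. No direction reversed. Leaving out replicate 1 or 2 of 1 dpa lost the most named calls, 79 and 78; the cause was not tested. Depth limits genes of low level at 4 dpa most, where a count of 3 reads is a normalised count of 7.42 to 7.47.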

Other observations

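Several lists not described above had few called members, beside 7.69% higher and 7.11% lower among all genes. Osteoclast genes had 1 of 17 higher and 1 lower: tnfsf11, the osteoclast-inducing ligand RANKL, had 183, 227 and 252 at 4 dpa, against 102, 118 and 104 at 1 dpa normalised counts (log2 change 1.02 ± 0.22 (SE), adjusted p = 0.00543, limma), while CTSK, cathepsin K, had 8207, 11274 and 10883 at 4 dpa, against 7855, 8773 and 5501 at 1 dpa and did not pass the test. Among G1 regulators, with 3 of 40 higher and 1 lower, cdkn1ca, a brake on the cell cycle, had 74.2, 79.7 and 49.5 at 4 dpa, against 18.9, 27.6 and 17.4 at 1 dpa (log2 change 1.62 ± 0.36 (SE), adjusted p = 0.00584, limma), and MYCN, a growth-promoting transcription factor, had 309, 463 and 455 at 4 dpa, against 699.8, 731 and 755 at 1 dpa (log2 change -0.85 ± 0.19 (SE), adjusted p = 0.00644, limma). RBL2, a relative of the retinoblastoma protein, had 705, 805 and 905 at 4 dpa, against 326, 309 and 461 at 1 dpa (log2 change 1.15 ± 0.25 (SE), adjusted p = 0.00494, limma). The lymphocyte list had 1 of 28 higher and 2 lower, and tnfrsf9a, a costimulatory receptor, had 247, 194 and 257 at 4 dpa, against 2288, 1733 and 923 at 1 dpa (log2 change -2.73 ± 0.34 (SE), adjusted p = 4.42e-05, limma). The interferon list had 1 of 34 higher and 2 lower, heat shock and oxidative stress genes 1 of 31 and 2, skin ionocytes 0 of 19 and 1, and genes encoded by mitochondria 0 of 13 and 1. Without some single libraries these small counts became 0 or 1: the interferon list had neither a higher nor a lower member without replicate 1 or replicate 2 of 1 dpa.

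Gene IDs without a descriptive name were also among the largest changes. ENSDARG00000117001 had 14999, 16942 and 21318 at 4 dpa, against 135, 93.3 and 226 at 1 dpa (log2 change 6.94), which is a larger change than that of all but 4 named genes that were higher. ENSDARG00000109271 had 7475, 5878 and 5763 at 4 dpa, against 101994, 118474 and 39736 at 1 dpa, against 711, 1808 and 1442 at 0 dpa. ENSDARG00000114385, ENSDARG00000111373 and ENSDARG00000116187 fell by 4.53, 4.44 and 4.21 on the log2 scale. In all 4 of these lower IDs, replicate 3 of 1 dpa was the lowest of its day and lay above each 4 dpa library. ENSDARG00000111123 had 17930.4, 15036 and 12278 at 4 dpa, against 658, 241 and 4418 at 1 dpa, with replicate 3 of 1 dpa far above the other 1 dpa libraries.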
